A study of Mus musculus with 22 samples.

Results

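The 10 genes described here encode proteins of the lysosomal membrane and were measured in the livers of mice with or without a hepatocyte deletion of folliculin (Flcn). They were chosen by symbol, with no measured value in the rule, but with earlier results of these data known. The counts of members called below therefore describe these genes only. Their rows in the gene count table carry the symbols Lamp1, Lamp2, Cd63, Scarb2, Mcoln1, Clcn7, Npc1, Ctns, Slc17a5 and Cln3. All 10 were found among the 55573 genes of the table, and all 10 passed the minimum mean count of 10 that left 14062 genes for testing.

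The study asked how loss of Flcn in the liver alters the response to a methionine and choline deficient (MCD) diet, which brings on fatty, inflamed and fibrotic liver. All 22 mice were C57BL/6 and 3 months old, and all carried Albumin-Cre+/-, a transgene that expresses Cre recombinase in hepatocytes, so that the controls share the transgene and lack the floxed alleles. Cre mice were Flcn WT/WT; Albumin-Cre+/- and were fed chow with 10 kcal percent fat (Cre Chow, 6 mice) or MCD (Cre MCD, 5 mice). FLCN KO mice were Flcn f/f; Albumin-Cre+/- and were fed the same chow (FLCN KO Chow, 5 mice) or MCD (FLCN KO MCD, 6 mice), each diet being given from 6 weeks of age for 6 weeks. RNA came from pieces of whole liver, which hold other cell types beside hepatocytes, so that fewer cells of a type and less RNA per cell cannot be told apart in these values. Albumin RNA (Alb), a defining hepatocyte transcript, averaged 79160 CPM over the livers (CPM are counts brought to a common library size, here with TMM factors), and each library held between 13751347 and 21144388 counted reads.

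The lysosomal membrane separates an acidic, hydrolase-filled lumen from the cytosol. It is lined by heavily glycosylated proteins that resist digestion, and it holds the channels and transporters through which ions, cholesterol and the products of digestion leave. Many lysosomal genes are transcribed by TFEB and TFE3, factors that bind E-box letters around CACGTG. FLCN, with its partners FNIP1 and FNIP2, acts on the RagC and RagD GTPases at the lysosomal surface, a step that lets mTORC1 phosphorylate TFEB and TFE3 and keep them in the cytosol.

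The letters CACGTG stood in the promoter windows of 4 of the 9 members that had an entry in the RefSeq promoter table (Lamp1, Mcoln1, Clcn7 and Cln3), each window running from 250 bases before to 50 bases after a start site. Both strands were searched, CACGTG being its own reverse complement. Of the 27025 genes in the table, 8.09% had CACGTG in at least 1 window, and 7.15% of the 32851 windows held it. The longer letters GTCACGTG, which contain CACGTG and read CACGTGAC on the other strand, were in windows of the same 4 members and of 2.55% of genes (2.25% of windows). The letters TCATGTG, or CACATGA on the other strand, were in windows of Scarb2 and Clcn7 and of 4.31% of genes (3.77% of windows). The stretches shown here are from the 4 members with CACGTG, to let the letters be seen in place, with each CACGTG in capitals (RefSeq, GRCm38.p6, each written 5′ to 3′ on the strand of the gene). They end before the first annotated exon, or for Cln3 hold the 30 bases around the copy nearer the start, so that 1 of the 2 copies is seen in Mcoln1, Clcn7 and Cln3. The Lamp1 stretch is chr8:13159001-13159160 on the + strand, that of Mcoln1 is chr8:3500297-3500456 on the + strand, that of Clcn7 is chr17:25133231-25133390 on the + strand, and the 30 bases of Cln3 are chr7:126583340-126583369 on the - strand.
Lamp1: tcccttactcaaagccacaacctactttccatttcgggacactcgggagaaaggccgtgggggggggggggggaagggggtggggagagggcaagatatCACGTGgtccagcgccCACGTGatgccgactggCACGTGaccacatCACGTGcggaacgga
Mcoln1: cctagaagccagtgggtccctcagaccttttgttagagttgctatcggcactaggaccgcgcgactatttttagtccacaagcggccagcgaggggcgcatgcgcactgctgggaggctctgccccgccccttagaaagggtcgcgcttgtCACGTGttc
Clcn7: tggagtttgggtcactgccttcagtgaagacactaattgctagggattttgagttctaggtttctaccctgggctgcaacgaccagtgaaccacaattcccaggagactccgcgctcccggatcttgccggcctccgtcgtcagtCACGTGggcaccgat
Cln3: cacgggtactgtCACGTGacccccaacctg

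In Lamp1 all 4 copies of CACGTG lay within the 61 bases before the start site, beginning at 61, 45, 28 and 15 bases before it. Mcoln1 had 2 copies, beginning 71 and 45 bases before the RefSeq start, and Clcn7 had 2, beginning 15 bases before and at base 8 after its start. Cln3 had 2 copies, beginning 149 and 121 bases before the second of its 2 RefSeq starts, which lies 2581 bases inside the gene as GENCODE draws it, and none in the window of its first start. No CACGTG was in the windows of Lamp2, Cd63, Scarb2, Ctns or Slc17a5, which says only that these letters are not in those windows. The Cd63 window is that of a start 8356 bases inside the GENCODE gene, and the Scarb2 window that of a start 1176 bases inside its own. The starts that GENCODE places upstream were not searched for either gene. Npc1 had no entry. A match is a description of the letters, and binding was not measured here.

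In the GRCm38 coordinates of the GENCODE annotation, Lamp1 lies at chr8:13159161-13175338, Mcoln1 at chr8:3500457-3515232, Cd63 at chr10:128900989-128912822 and Clcn7 at chr17:25133391-25162104, all on the + strand. On the - strand lie Lamp2 at chrX:38401357-38456454, Scarb2 at chr5:92441314-92506833, Ctns at chr11:73183596-73199042, Cln3 at chr7:126571207-126585817 and Slc17a5 at chr9:78536488-78588041, and Npc1 is on chromosome 18. Reads were counted over all exons of a gene, so the values do not tell its start sites or isoforms apart.

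Flcn itself was counted over the whole gene. In Cre Chow it ran from 26.1 to 40.2 CPM with a median of 31.8, and in the FLCN KO Chow livers it was 24.2, 19.96, 16.7, 19.4 and 21.8 CPM. On chow every FLCN KO value lay below every Cre value (log2 fold change -0.63 ± 0.17 SE, adjusted p = 0.0249). In Cre MCD it was 31.8, 18.2, 39.9, 32.5 and 23.6 CPM, and in FLCN KO MCD it ran from 17.6 to 32.6 CPM with a median of 26.6, so that the groups overlapped on MCD (log2 fold change -0.16 ± 0.17, adjusted p = 0.567). The recombination removes a single exon and leaves the rest of the transcript to be counted, so the gene total checks the genotype labels only weakly. Unless stated otherwise, p-values here are 2-sided, from the quasi-likelihood test of edgeR, adjusted over the 14062 genes by the Benjamini-Hochberg method, errors on log2 fold changes are SE, errors on CPM are SD, and a gene is said to rise or fall where the adjusted p is under 0.05.

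Per kilobase of exon, the members ranged over more than 2 orders of magnitude. Lamp1, a glycoprotein that makes up much of the membrane's lining, stood at 305 ± 43.9 CPM per kb in Cre Chow (n = 6) and Lamp2, its relative that also serves as a receptor in chaperone-mediated autophagy, at 79.3 ± 3.46. Scarb2 (LIMP-2), the receptor that carries glucocerebrosidase to lysosomes, followed at 29.6 ± 4.53. The ranges of these 3 did not meet. Npc1, which passes cholesterol out of the lysosome, Slc17a5 (sialin), which exports sialic acid, and Clcn7, which exchanges chloride for protons, came next at 10.6, 9.80 and 8.55 CPM per kb, and neighbours among these 3 overlapped. Ctns, the cystine exporter, at 4.71 and Mcoln1 (TRPML1), a calcium-releasing channel, at 4.04 overlapped each other. Cln3, the protein lost in juvenile Batten disease, at 2.10 ± 0.16 and Cd63, a tetraspanin of late endosomes and lysosomes, at 1.15 ± 0.355 closed the order.

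That order changed with genotype and diet mainly through Cd63. It was the lowest of the 10 in Cre Chow, the fourth in FLCN KO Chow (14.8 ± 5.51 CPM per kb) and in Cre MCD (23.4 ± 11.6), and the second in FLCN KO MCD (66.2 ± 11.2), where its range overlapped that of Lamp2 (56.8 ± 5.22). Lamp1 was the highest in each of the 4 groups, and over all livers it ranked 134 of 14061 genes per kilobase. The count behind a single value ran from 34 reads (Cd63 in a Cre Chow liver) to 25454 reads (Lamp1 in a FLCN KO MCD liver).

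**Figure D1:**
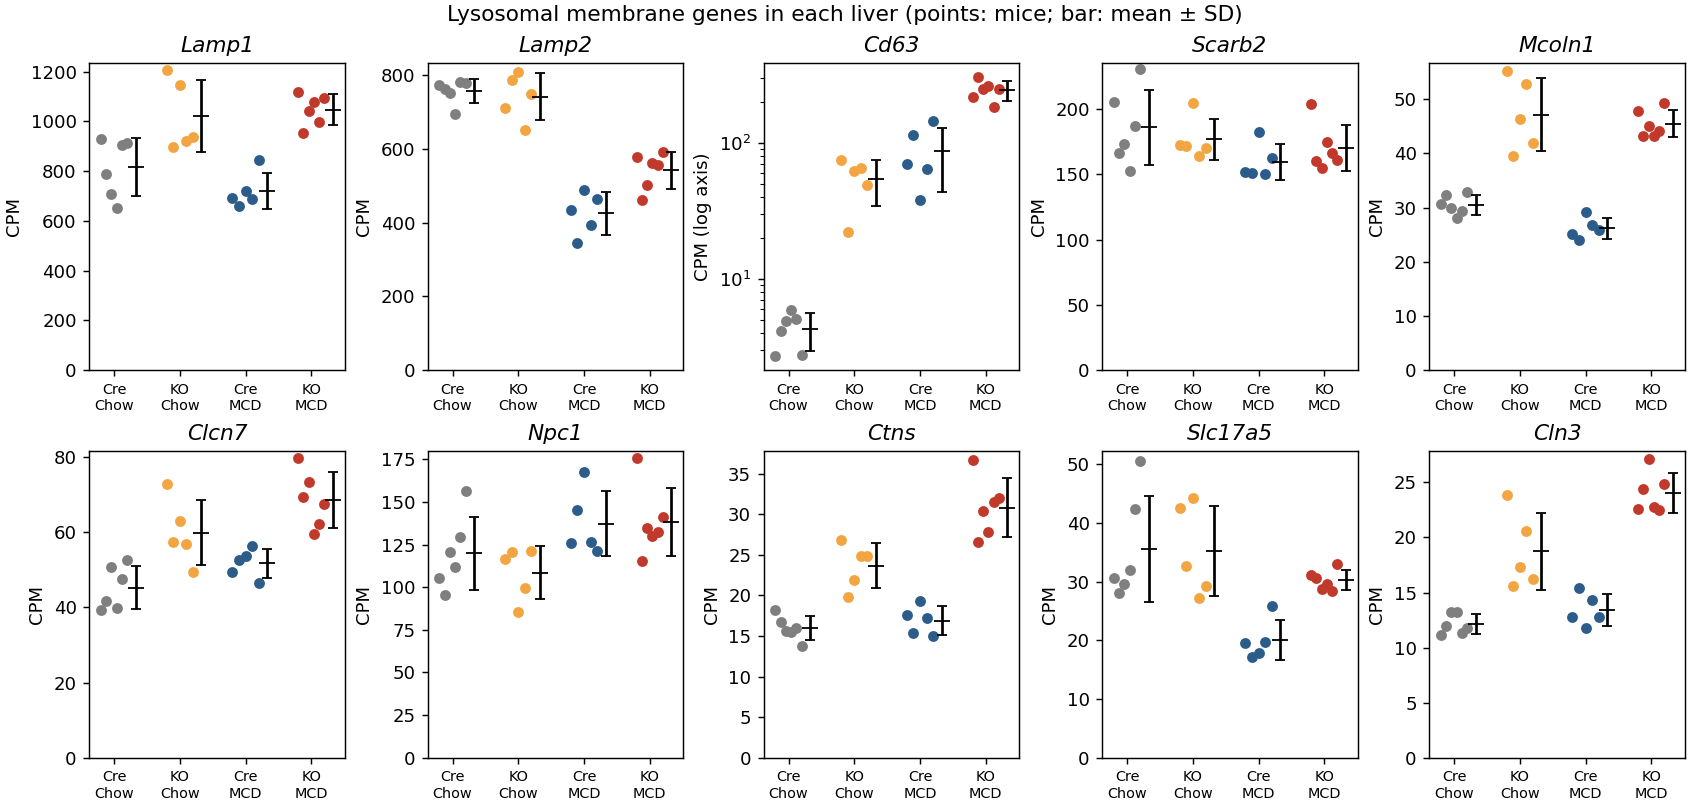
CPM (TMM-scaled) of each of the 10 genes in every liver of the 4 groups, 1 panel per gene, with the mean and SD beside the points; the Cd63 axis is logarithmic and the others start at 0. Cd63 spans from 2.69 to 304 CPM, while Scarb2 overlaps in all groups and Npc1 overlaps between genotypes on each diet.

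Loss of Flcn on chow was compared first. Of the 10 genes, 5 rose in FLCN KO Chow over Cre Chow (Cd63, Mcoln1, Cln3, Ctns and Clcn7) and 0 fell, while 5.52% of all tested genes rose and 3.1% fell. The median log2 fold change of the 10 was 0.36, against -0.03 over all tested genes. For 4 of the 10 every FLCN KO liver was above every Cre liver, which held for 4.01% of all tested genes. When libraries were scaled by their totals alone, without TMM factors, all log2 fold changes on chow shifted upward by a median of 0.15, 10.3% of all genes rose and 0.889% fell, and 6 of the 10 rose and 0 fell, the added gene being Lamp1.

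Among the structural glycoproteins Cd63 had the largest difference on chow. It was at 2.69 to 5.90 CPM with a median of 4.50 in Cre Chow, and at 74.2, 21.9, 62.1, 64.8 and 48.8 CPM in FLCN KO Chow. Every FLCN KO value was thus above every Cre value, and the fitted difference between the groups was 12.7-fold (log2 fold change 3.67 ± 0.33, adjusted p = 1.71e-07). Lamp1 was at 652 to 929 CPM with a median of 846 in Cre Chow, and at 1206, 896, 1144, 921 and 936 CPM in FLCN KO Chow. These groups overlapped, and Lamp1 did not pass the test (log2 fold change 0.32 ± 0.11, 95% interval 0.11 to 0.53, adjusted p = 0.0616), though it did so in 5 of the 11 other settings tried and without Cre Chow 1, Cre MCD 5 or FLCN KO Chow 2 (adjusted p of 0.037 to 0.152 over the fits that left out 1 mouse). Lamp2 (log2 fold change -0.03, interval -0.21 to 0.15) and Scarb2 (-0.07, interval -0.27 to 0.12) did not pass it either.

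Of the channels and transporters, Mcoln1 had the smallest adjusted p on chow. It was at 28.1 to 32.8 CPM with a median of 30.2 in Cre Chow, and at 55.1, 39.5, 46.3, 52.9 and 42.0 CPM in FLCN KO Chow. All FLCN KO livers lay above all Cre livers (1.55-fold, log2 fold change 0.63 ± 0.08, adjusted p = 2.41e-05). Cln3 was at 11.2 to 13.3 CPM with a median of 11.9 in Cre Chow, and at 23.9, 15.6, 17.3, 20.6 and 16.2 CPM in FLCN KO Chow. It showed the same separation (log2 fold change 0.63 ± 0.10, adjusted p = 0.000347). Ctns was at 13.7 to 18.2 CPM with a median of 15.9 in Cre Chow, and at 26.9, 19.8, 22.0, 24.9 and 24.9 CPM in FLCN KO Chow. Its groups did not overlap either (log2 fold change 0.57 ± 0.10, adjusted p = 0.000579).

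Clcn7 was at 39.3 to 52.6 CPM with a median of 44.5 in Cre Chow, and at 72.8, 57.5, 63.1, 56.9 and 49.4 CPM in FLCN KO Chow. It rose although 1 FLCN KO liver lay within the Cre range (log2 fold change 0.40 ± 0.10, adjusted p = 0.0138). Npc1 (log2 fold change -0.14, interval -0.39 to 0.11) and Slc17a5 (-0.01, interval -0.31 to 0.28) did not pass the test on chow, and their adjusted p-values were 0.549 and 0.973. Of the 11 chow libraries, 5 had a low share of uniquely mapped reads in the study's quality listing, and these were the same 5 in which Ddx3y, a Y-linked gene, exceeded Xist (Cre Chow 1, 5 and 6, FLCN KO Chow 1 and 3). Without those 5, Cd63 (log2 fold change 3.18, adjusted p = 0.000478), Mcoln1 (0.57, adjusted p = 0.00697) and Ctns (0.54, adjusted p = 0.0312) still rose, and Clcn7 (0.31, adjusted p = 0.199) and Cln3 (0.44, adjusted p = 0.0662) did not pass the test. Sex and mapped share cannot be told apart among the chow libraries. The chow mice left without those 5 all had Xist above Ddx3y. On MCD, Ddx3y exceeded Xist in 2 mice of Cre MCD and 3 mice of FLCN KO MCD. Diet and interaction fits without the 5 thus set chow mice of 1 sex beside MCD mice of both. Some libraries with Xist above Ddx3y still held Ddx3y reads, as Cre MCD 1 (378, beside 5411 of Xist) and FLCN KO Chow 2 (263, beside 6222).

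On the MCD diet more of the genes differed between genotypes. Of the 10, 8 rose in FLCN KO MCD over Cre MCD and 0 fell, while 8.06% of all tested genes rose and 8.53% fell. Scarb2 and Npc1 were the members that did not pass the test. The median log2 fold change of the 10 was 0.57, against -0.01 over all tested genes. For 7 of the 10 every FLCN KO liver was above every Cre liver, which held for 5.08% of all tested genes. All 8 stayed past the threshold when any single mouse was left out and in each of the 11 other settings tried.

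Ctns, Cln3 and Mcoln1 had the smallest adjusted p-values on MCD. Ctns was at 17.6, 15.3, 19.3, 17.2 and 15.0 CPM in Cre MCD and at 26.6 to 36.7 CPM with a median of 31.0 in FLCN KO MCD. The groups were well apart (1.83-fold, log2 fold change 0.87 ± 0.10, adjusted p = 3.8e-06). Cln3 was at 12.8, 15.4, 11.8, 14.3 and 12.8 CPM in Cre MCD and at 22.5 to 27.1 CPM with a median of 23.6 in FLCN KO MCD. It was higher in each of the 6 FLCN KO livers (1.79-fold, log2 fold change 0.84 ± 0.10, adjusted p = 9.74e-06). Mcoln1 was at 25.1, 24.1, 29.2, 26.7 and 25.9 CPM in Cre MCD and at 43.2 to 49.3 CPM with a median of 44.6 in FLCN KO MCD. No value of one group came near the other (1.73-fold, log2 fold change 0.79 ± 0.08, adjusted p = 1.56e-06).

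Slc17a5 was at 19.6, 17.2, 17.9, 19.7 and 25.8 CPM in Cre MCD and at 28.4 to 32.97 CPM with a median of 30.2 in FLCN KO MCD. All FLCN KO livers lay above all Cre livers (log2 fold change 0.60 ± 0.15, adjusted p = 0.01). Clcn7 was at 49.5, 52.8, 53.7, 56.2 and 46.4 CPM in Cre MCD and at 59.5 to 79.7 CPM with a median of 68.5 in FLCN KO MCD. Its groups were likewise apart, by a smaller margin (log2 fold change 0.41 ± 0.10, adjusted p = 0.0076). Npc1 averaged 137 ± 19.2 CPM in Cre MCD (n = 5) and 138 ± 20.2 CPM in FLCN KO MCD (n = 6), a log2 difference of 0.01 with an interval of -0.24 to 0.26.

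Of the 4 structural glycoproteins, 3 rose in FLCN KO MCD. Cd63 was at 69.9, 114, 38.2, 63.9 and 145 CPM in Cre MCD and at 182 to 304 CPM with a median of 247 in FLCN KO MCD. The groups did not overlap, with a wide spread among the Cre livers (2.83-fold, log2 fold change 1.499 ± 0.30, adjusted p = 0.00158). Lamp1 was at 690, 661, 720, 687 and 846 CPM in Cre MCD and at 951 to 1118 CPM with a median of 1059 in FLCN KO MCD. All FLCN KO livers were above all Cre livers (1.45-fold, log2 fold change 0.54 ± 0.11, adjusted p = 0.00155). Lamp2 was at 435, 344, 489, 394 and 465 CPM in Cre MCD and at 462 to 592 CPM with a median of 560 in FLCN KO MCD. The 2 highest Cre livers overlapped the lowest FLCN KO liver, and Lamp2 still rose (1.28-fold, log2 fold change 0.35 ± 0.09, adjusted p = 0.0109). Scarb2 averaged 160 ± 13.9 CPM in Cre MCD and 170 ± 17.9 CPM in FLCN KO MCD (log2 difference 0.09, interval -0.10 to 0.29).

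**Figure D2:**
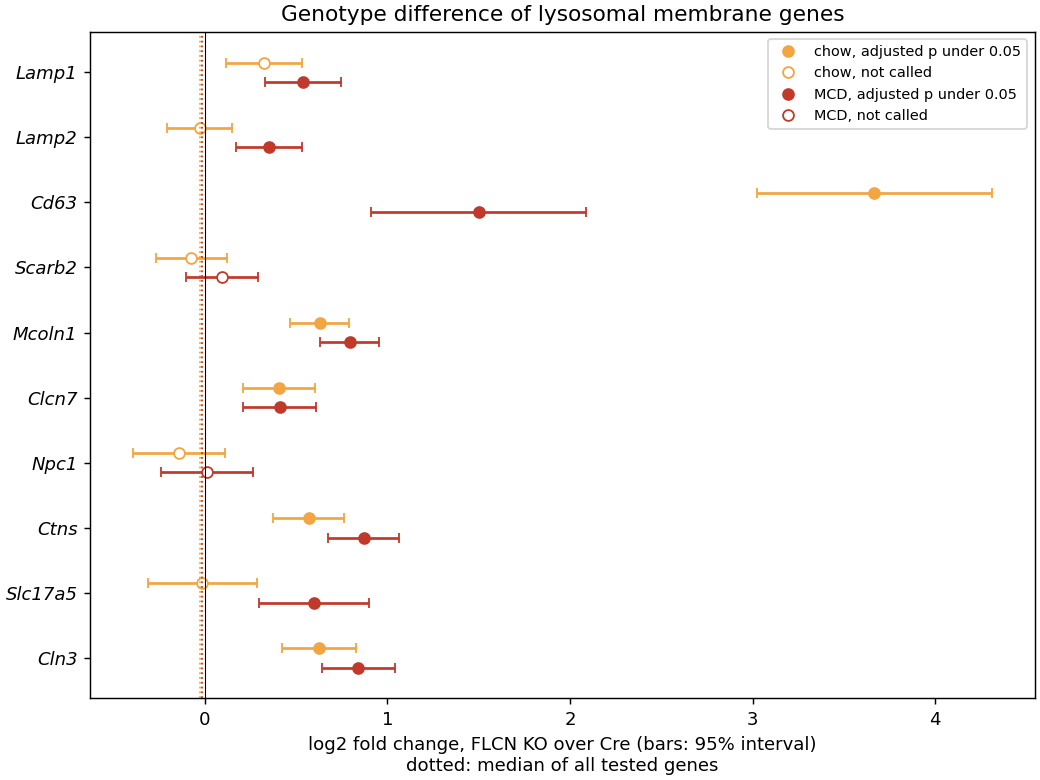
Log2 fold change of each of the 10 genes in FLCN KO over Cre livers (x axis), on chow and on MCD, with bars of the 95% interval; filled points have an adjusted p under 0.05 and dotted lines mark the median of all tested genes (-0.03 on chow, -0.01 on MCD). On chow 5 points are filled and on MCD 8, all to the right of 0.

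Exons of 3 of the 10 genes overlap those of genes on the opposite strand in the GENCODE annotation: 9.31% of the exon bases of Lamp1 are shared with Grtp1, 7.65% of those of Cln3 with Apobr and 5.31% of those of Npc1 with Rmc1 and Gm15956. The strand setting of the counting is not given in the sources used here, so the split of reads between these pairs is uncertain.

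The response to the diet was then compared within each genotype, where the scaling bears on the direction. In Cre mice Cd63 was the 1 gene of the 10 that rose with MCD, and 3 fell (Lamp2, Slc17a5 and Mcoln1), while 29.3% of all tested genes rose and 28.2% fell. Cd63 was alone in lying above the chow range in every MCD liver, as did 15.6% of all tested genes. In FLCN KO mice 4 rose (Cd63, Ctns, Cln3 and Npc1) and 1 fell (Lamp2), while 22.5% of all tested genes rose and 22.5% fell. Cd63 was again alone in lying above the chow range in every MCD liver, as did 14.4% of all tested genes. Scaled by library totals alone, all log2 fold changes with diet shifted upward by a median of 0.42 in Cre mice and 0.26 in FLCN KO mice. On that scale 56.2% of all genes rose and 12.4% fell in Cre mice, with 7 of the 10 higher and 2 lower, and 41.3% rose and 12.3% fell in FLCN KO mice, with 7 of the 10 higher and 0 lower.

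Cd63 rose with MCD in both genotypes, by 4.33 ± 0.33 on the log2 scale in Cre mice (20.2-fold, adjusted p = 1.08e-09) and by 2.17 ± 0.31 in FLCN KO mice (4.49-fold, adjusted p = 8.46e-06). Lamp2 fell by 0.83 on the log2 scale in Cre mice, from a mean of 758 ± 33.01 CPM (n = 6) to 425 ± 57.5 CPM (n = 5), with no overlap (adjusted p = 1.77e-07). In FLCN KO mice it fell by 0.45, from 742 ± 63.1 CPM (n = 5) to 543 ± 49.9 CPM (n = 6), again with no overlap (adjusted p = 0.000363). With library totals alone the fall was 0.42 in Cre mice, still past the threshold, and 0.19 in FLCN KO mice (adjusted p = 0.0517). Slc17a5 fell by 0.83 in Cre mice, from 35.6 ± 8.98 to 20.04 ± 3.41 CPM (adjusted p = 0.000113), and differed by -0.22 in FLCN KO mice (interval -0.51 to 0.08, adjusted p = 0.257). Over the 11 other settings its log2 fold change in Cre mice ran from -0.83 to -0.41 and was called in each (adjusted p up to 0.0133).

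The smaller diet differences depended on the scaling, the filter on low counts, the terms of the fit and single mice. Mcoln1 fell by 0.22 on the log2 scale in Cre mice (adjusted p = 0.0274), but it lost the call when Cre Chow 2, Cre Chow 6, Cre MCD 1, Cre MCD 2 or Cre MCD 5 was left out (adjusted p up to 0.0713), and with library totals alone it rose instead by 0.20 (adjusted p = 0.0347). Its call was also lost with no filter on low counts (adjusted p = 0.121), with at least 10 counts in every library (0.085), with mapped share as a term (0.179), without the 5 low-mapped libraries (0.0937) and with the replicate number as a block (0.0559). Npc1 rose by 0.35 in FLCN KO mice (adjusted p = 0.0334) and lost the call without FLCN KO Chow 3, FLCN KO Chow 4, FLCN KO MCD 1 or FLCN KO MCD 6 (adjusted p up to 0.104), and also with no filter on low counts (0.054), without the 5 low-mapped libraries (0.0993) and with the replicate block (0.0844). Ctns (log2 fold change 0.38, adjusted p = 0.00296) and Cln3 (0.36, adjusted p = 0.00621) rose with MCD in FLCN KO mice under all settings tried. In Cre mice the same 2 genes differed by 0.08 (interval -0.11 to 0.27) and 0.14 (interval -0.06 to 0.35) with TMM scaling. With library totals alone both were called in Cre mice too (Ctns 0.50, adjusted p = 0.000183, and Cln3 0.57, adjusted p = 0.000166). Scarb2, Clcn7 and Lamp1 did not pass the test with diet in either genotype in the 4-group fit with TMM scaling, but other settings with the same scaling called them. With mapped share as a term Clcn7 was called in Cre (0.30, adjusted p = 0.0377) and FLCN KO mice (0.26, adjusted p = 0.0437), and Lamp1 in FLCN KO mice (0.19, adjusted p = 0.046). Clcn7 was also called in Cre mice among genes with at least 10 counts in every library (0.24, adjusted p = 0.0429), and in FLCN KO mice without the 5 low-mapped libraries (0.33, adjusted p = 0.0177) or without FLCN KO Chow 1 (0.27, adjusted p = 0.0308). Scarb2 was called in Cre mice without Cre Chow 2, Cre Chow 4 or Cre MCD 3 (-0.25 to -0.27, adjusted p from 0.0238 to 0.0477).

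**Figure D3:**
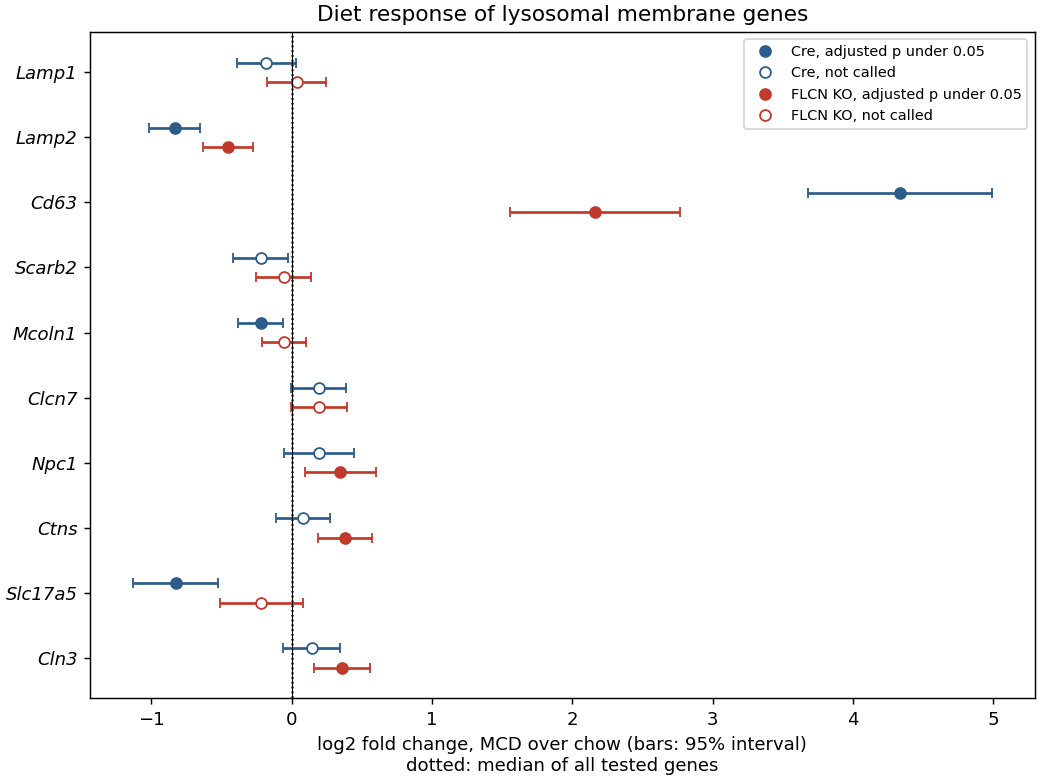
Log2 fold change of each of the 10 genes with MCD over chow (x axis), in Cre and in FLCN KO livers, with bars of the 95% interval, TMM scaling; filled points have an adjusted p under 0.05 and dotted lines mark the median of all tested genes. Cd63 lies far to the right in both genotypes, and Lamp2 lies to the left of 0 in both.

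Whether the genotype difference itself changed with diet was tested as an interaction, the log2 diet response of FLCN KO mice minus that of Cre mice. Of the 10 genes 1 had a lower value past the threshold (Cd63) and 0 a higher one, while 5.54% of all tested genes were lower and 3.29% higher. With library totals alone the same counts held for the 10, beside 8.79% lower and 1.26% higher of all genes. The interaction of Cd63 was -2.17 ± 0.43 (interval -3.00 to -1.33, adjusted p = 0.00401). Without the 5 chow libraries of low mapped share it was -1.68 (adjusted p = 0.0654). The values for Lamp2 (0.38, interval 0.13 to 0.63, adjusted p = 0.0678) and Slc17a5 (0.61, interval 0.19 to 1.03, adjusted p = 0.0786) did not pass the test, although the genotype difference of both was called on MCD and not on chow. Without the 5 low-mapped libraries Slc17a5 was the gene called (0.61, adjusted p = 0.0371). For Mcoln1 (0.17), Clcn7 (0.00), Ctns (0.30) and Cln3 (0.22) the adjusted p-values ran from 0.179 to 0.991.

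Genes of the FLCN, Rag and MiT-TFE list, the pathway list here, were read beside the members. Whether that pathway acts on the members was not tested. Rragd, which encodes RagD, was at 1.502 to 2.59 CPM with a median of 2.43 in Cre Chow, and at 41.7, 17.2, 40.5, 37.9 and 28.6 CPM in FLCN KO Chow. On chow it was thus higher in every FLCN KO liver (log2 fold change 3.91 ± 0.25, adjusted p = 7.77e-10), as it was on MCD (3.18 ± 0.24, adjusted p = 2.46e-08). Rragc, which encodes RagC, rose less (log2 fold change 0.38 on chow, adjusted p = 0.00274, and 0.60 on MCD, adjusted p = 1.58e-05), and without the 5 low-mapped chow libraries its chow difference was 0.36 (adjusted p = 0.053). The FLCN partners Fnip1 (0.58, adjusted p = 0.00949) and Fnip2 (1.33, adjusted p = 0.00172) rose on MCD and did not pass the test on chow (adjusted p = 0.0956 and 0.0642), though some alternatives called them there, among them the fit without Cre MCD 3 for Fnip2 (0.79, adjusted p = 0.0068) and that without Cre Chow 6 for Fnip1 (0.55, adjusted p = 0.00838). Fnip2 was at 39.2 CPM in Cre MCD 3 and at 9.61 to 17.1 CPM in the other Cre MCD livers, and its interaction was called without that library (1.00, adjusted p = 0.0216). Of the factors' transcripts, Tfe3 fell on MCD (-0.29, adjusted p = 0.00609). Mitf differed there by -0.48 (adjusted p = 0.0481), a call lost without Cre MCD 3 (adjusted p = 0.0791) and most other single mice, and Tfeb differed by -0.07 on chow and -0.13 on MCD (adjusted p = 0.803 and 0.576). Rraga, for RagA, differed by 0.14 on chow and -0.09 on MCD (adjusted p = 0.379 and 0.559), and Rragb was too low to be tested, at 0 to 2.10 CPM over the 22 livers.

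Gpnmb, a membrane glycoprotein gene that TFE3 and MITF are known to activate and that lipid-laden macrophages express, had another pattern. It was at 0.0791 to 0.677 CPM in Cre Chow and at 0.467 to 4.08 CPM in FLCN KO Chow (adjusted p = 0.00816), and at 47.8 to 262 CPM in Cre MCD and 55.2 to 260 CPM in FLCN KO MCD (log2 fold change 0.09, adjusted p = 0.915). Its interaction was -2.95 ± 0.82 (adjusted p = 0.0292). Both the chow difference and the interaction lost their call with limma-voom (adjusted p = 0.218 and 0.251) and without the 5 low-mapped chow libraries (adjusted p = 0.0646 and 0.0763), and the interaction also with mapped share as a term (0.0613), with the replicate block (0.0845) and without FLCN KO Chow 4 (0.0642) or FLCN KO Chow 5 (0.0591). Summed over its 11 genes, the list stood at 223 ± 16.2 CPM in Cre Chow, 289 ± 18.8 in FLCN KO Chow, 380 ± 105 in Cre MCD and 514 ± 84.4 in FLCN KO MCD. Gpnmb made up 129 CPM of the Cre MCD mean and 137 CPM of the FLCN KO MCD mean. Cre MCD 3, which stood apart by muscle genes as described below, had a sum of 543.9 CPM with Gpnmb at 262 CPM, and the other Cre MCD livers had sums of 267 to 402 CPM.

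Of 51 further genes whose products sit in the lysosomal membrane, 49 were tested. On chow 7 rose and 1 fell in FLCN KO livers, beside 5.52% and 3.1% of all genes, with a median log2 fold change of 0.09. On MCD 13 rose and 7 fell, beside 8.06% and 8.53%, with a median of 0.09. With diet 19 rose and 14 fell in Cre mice, where 29.3% of all genes were called higher and 28.2% lower. In FLCN KO mice 14 rose and 11 fell with diet, where 22.5% of all genes were called in each direction. In the interaction 2 were higher and 7 lower, beside 3.29% and 5.54%. These splits depended on the settings. On MCD they were 8 higher and 7 lower with no filter on low counts, where all 51 genes were tested. Over all genes that fit called 983 higher and 1069 lower of 32124. With the replicate block they were 9 higher and 6 lower, beside 978 higher and 894 lower of all 14062 genes. With library totals alone the calls with diet were 29 higher and 4 lower in Cre mice, beside 56.2% and 12.4% of all genes, and 24 higher and 4 lower in FLCN KO mice, beside 41.3% and 12.3%. On that scale the calls on chow were 14 higher and 0 lower, beside 10.3% and 0.889%. In the interaction they were 1 higher and 8 lower, beside 1.26% and 8.79%.

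In FLCN KO livers 5 of the 49 rose on both diets, as did 2.03% of all tested genes: Glmp, which protects lysosomal membrane partners from digestion, Ostm1, the partner subunit of the Clcn7 exchanger, Pqlc2, which exports cationic amino acids, Laptm4b and Pip4p2. Glmp averaged 63.7 ± 3.33 CPM in Cre Chow, 93.2 ± 15.3 in FLCN KO Chow, 76.9 ± 8.81 in Cre MCD and 118 ± 15.9 in FLCN KO MCD (log2 fold change between genotypes 0.55 on chow, adjusted p = 0.00174, and 0.61 on MCD, adjusted p = 0.000475). Ostm1 rose by 0.51 on chow (adjusted p = 0.00382) and 0.47 on MCD (adjusted p = 0.0041), next to 0.40 and 0.41 for Clcn7. Pqlc2 rose by 0.75 on chow (adjusted p = 0.00889) and 0.51 on MCD (adjusted p = 0.0486). On MCD it was at 19.8 CPM in Cre MCD 3, 35.7 to 44.4 CPM in the other 4 Cre livers and 43.9 to 58.3 CPM in the FLCN KO livers, and without Cre MCD 3 the difference was 0.35 (adjusted p = 0.102). The Pqlc2 call on MCD was lost in 19 of 33 alternative settings, and that of Pip4p2 on MCD in 7 of 33. Tmem63a, which encodes a mechanosensitive channel, was the gene of the 49 that fell on both diets (0.576% of all tested genes did), by 0.44 on chow (adjusted p = 0.0361) and 0.56 on MCD (adjusted p = 0.00666); its call on chow was lost in 14 of 33 alternative settings. Without the 5 low-mapped chow libraries the calls on chow of Pqlc2 (log2 fold change 0.77, adjusted p = 0.0795), Glmp (0.44, adjusted p = 0.0952) and Laptm4b (0.42, adjusted p = 0.192) were lost as well, in a fit with fewer mice. Tmem106b had the largest rise on MCD (0.86 ± 0.12, adjusted p = 4.31e-05), from 171 ± 26.7 to 311 ± 53.6 CPM, and its difference on chow was 0.19 (adjusted p = 0.347). Pld3 rose on chow (0.58, adjusted p = 0.00151) and differed by -0.13 on MCD (adjusted p = 0.452).

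The largest falls among the 49 on MCD were in Slc15a3 (log2 fold change -0.91, adjusted p = 0.00289), Gpr137b (-0.90, adjusted p = 0.0286), Laptm5 (-0.86, adjusted p = 0.000766), Slc11a1 (-0.85, adjusted p = 0.00172) and Cd68 (-0.73, adjusted p = 0.00615). The Gpr137b call on MCD was lost in 8 of 32 alternative settings (adjusted p up to 0.0772). Laptm5, Slc11a1 and Cd68 are known as genes of macrophages and other blood cells. Cd68 was at 32.2, 26.5, 37.1, 46.7 and 28.2 CPM in Cre MCD and at 15.1 to 28.2 CPM in FLCN KO MCD. With MCD in Cre mice Gpr137b (2.48), Cd68 (1.48), Slc15a3 (1.39) and Pqlc2 (1.34) rose most, and Abca2 (-1.82) and Tmem63a (-1.73) fell most, on the log2 scale with TMM factors. In FLCN KO mice Abca2 (-1.87), Tmem63a (-1.85) and Slc46a3 (-0.96) fell, and Pqlc2 (1.09), Tmem192 (1.00) and Gpr137b (0.90) rose. The Gpr137b call with diet in FLCN KO mice was lost with limma-voom (0.83, adjusted p = 0.0533), with mapped share as a term (0.66, adjusted p = 0.0827) and without FLCN KO MCD 2 (0.75, adjusted p = 0.0509).

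**Figure D4:**
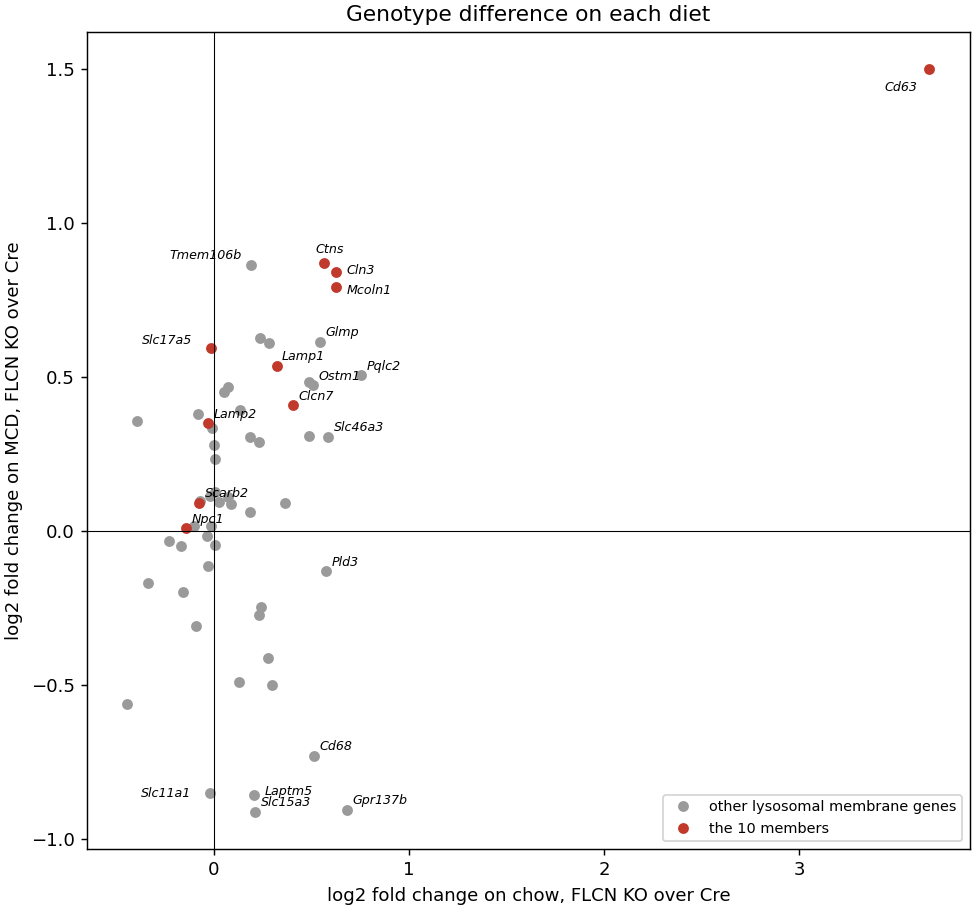
Log2 fold change in FLCN KO over Cre livers on chow (x axis) and on MCD (y axis) for the 10 genes (red) and the 49 other lysosomal membrane genes that were tested (grey); the members and the most changed others are named. The members lie above 0 on MCD, while Slc15a3, Gpr137b, Laptm5, Slc11a1 and Cd68 lie furthest below it.

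Markers of other liver cells moved with genotype and diet, and their values belong beside those of the members. The 10 marker genes of infiltrating macrophages summed to 134 ± 15.9 CPM in Cre Chow, 233 ± 41.1 in FLCN KO Chow, 488 ± 99.2 in Cre MCD and 280 ± 86.4 in FLCN KO MCD, with Lyz2 the most abundant and 0 of the 10 at 0. On chow 5 of them rose and 0 fell in FLCN KO livers, beside 5.52% and 3.1% of all tested genes. On MCD 0 rose and 6 fell, beside 8.06% and 8.53%. Cd63 was higher in FLCN KO livers on both diets, so that it moved the same way as this list on chow and the opposite way on MCD. With MCD all 10 rose in Cre mice, and 5 rose and 0 fell in FLCN KO mice. Cd63 rose in both genotypes, most in Cre mice. Over all tested genes 29.3% rose and 28.2% fell with diet in Cre mice, and 22.5% each way in FLCN KO mice. The shares of all tested genes given here also stand beside the counts of the marker lists below. The part of these cells in the Cd63 values was not tested.

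The 10 marker genes of resident macrophages summed to 637 ± 113 CPM in Cre Chow, 722 ± 106 in FLCN KO Chow, 662 ± 181 in Cre MCD and 551 ± 160 in FLCN KO MCD (Cd5l the most abundant). In FLCN KO livers 1 of them rose and 0 fell on each diet. Their log2 fold changes were above 0 for 9 of the 10 on chow (median 0.16) and for 2 of the 10 on MCD (median -0.35). Hepatocyte markers, led by Alb, summed to 149900 ± 19590, 124600 ± 20120, 99160 ± 15290 and 82200 ± 8686 CPM in the same order. Between genotypes 1 of the 10 hepatocyte genes fell on chow and 1 on MCD, beside 3.1% and 8.53% of all tested genes. With diet 8 of the 10 fell in each genotype, beside 28.2% in Cre mice and 22.5% in FLCN KO mice. Bile duct markers (7 genes, Spp1 the most abundant, a gene that is also on the infiltrating macrophage list) summed to 83.2 ± 19.4, 145 ± 47.6, 158 ± 23.7 and 143 ± 21.8 CPM. In FLCN KO livers 2 were called higher and 0 lower on chow, and 3 higher and 0 lower on MCD. Their log2 fold changes were above 0 for 5 of the 7 on chow (median 0.10) and for 3 of the 7 on MCD (median -0.35).

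Stellate cell markers (Ecm1 the most abundant) summed to 301 ± 87.1 CPM in Cre Chow, 324 ± 79.4 in FLCN KO Chow, 430 ± 115 in Cre MCD and 297 ± 25.1 in FLCN KO MCD, and 6 of the 10 fell in FLCN KO livers on MCD. Endothelial markers (Eng the most abundant) summed to 310 ± 59.7, 366 ± 47.3, 275 ± 28.4 and 279 ± 16.7 CPM in the same order. Neutrophil markers (S100a9 the most abundant) averaged 6.34, 6.95, 33.7 and 19.1 CPM in sum, and lymphocyte markers (Cd79b the most abundant) 6.92, 10.9, 7.51 and 6.79 CPM. In no list was a gene at 0 in all livers. The part of each of these cell types in the members' differences was not tested.

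The library Cre MCD 3 stood apart by skeletal muscle genes: 10 of them, with Myh1 the most abundant, summed to 2883 CPM there, while the next highest sums were 141 CPM (Cre MCD 4) and 66.4 CPM (FLCN KO MCD 3). Without Cre MCD 3 the same 8 of the 10 members rose on MCD, with log2 fold changes of 1.31 for Cd63 (adjusted p = 0.00343), 0.92 for Ctns and 0.84 for Mcoln1.

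**Figure D5:**
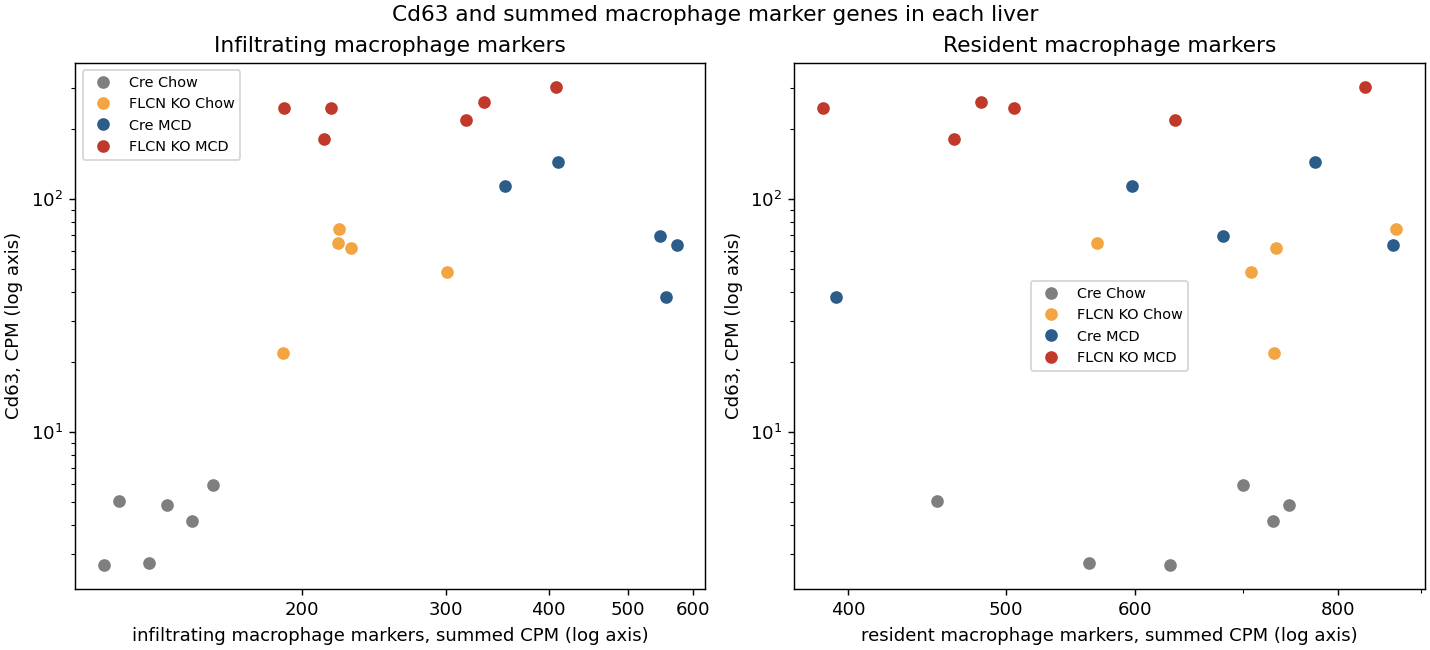
Cd63 (y axis, CPM, log scale) against the summed CPM of infiltrating (left) and resident (right) macrophage marker genes (x axis, log scale) in each of the 22 livers, coloured by group. FLCN KO MCD livers hold the highest Cd63, from 182 to 304 CPM, at marker sums that average 280 CPM, below the 488 CPM of Cre MCD livers.

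The members did not follow a single pattern across livers. Over the 45 pairs of members the Pearson correlation of log2 CPM across the 22 livers ranged from -0.628 to 0.893 with a median of 0.333, and with the group means removed the median was 0.183. The highest values were those of Ctns and Cln3 (0.893) and of Lamp1 and Mcoln1 (0.863), which were 0.0878 and 0.48 with the group means removed. The highest value with the group means removed was that of Lamp1 and Slc17a5 (0.708). These values describe 22 points that share their groups, libraries and scaling.

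For each member the tested gene whose log2 CPM followed it most closely over the 22 livers was found, as a description only. Mcoln1 was nearest to Tpp1 (r = 0.949, rho = 0.911) and Cln3 to Ctsa (r = 0.962, rho = 0.915), Tpp1 and Ctsa both encoding enzymes of the lysosomal lumen. Cd63 was nearest to Sema3b (r = 0.978, rho = 0.944), Lamp2 to Zcchc24 (r = 0.98, rho = 0.923) and Ctns to Plekhg5 (r = 0.951, rho = 0.892). Lamp1 was nearest to Tmem28 (r = 0.902), Slc17a5 to Nsmce4a (r = 0.898), Clcn7 to P2rx4 (r = 0.894), Scarb2 to Rab3gap1 (r = 0.888) and Npc1 to Cobll1 (r = 0.783), the lowest of the 10.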

How the data were processed

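The authors trimmed reads with Trimmomatic, aligned them to GRCm38 with STAR and counted them per gene with HTSeq, and they deposited 1 table of raw counts for the 22 livers, each column matched to its sample by name. The annotation release, the strand setting and any collapsing of molecular identifiers are not given in the sources used here. Each replicate is a mouse, and no 2 libraries held identical counts. The 14062 genes whose counts averaged 10 or more over the 22 libraries were fitted together in the 4 groups with edgeR 4.0.16 (quasi-likelihood, TMM factors, R 4.3.3), in 2-sided tests with Benjamini-Hochberg adjustment at 0.05, and the SE of a log2 fold change was its size over the square root of the F statistic, with a normal 95% interval. Alternatives were limma 3.58.1 with voom, DESeq2 1.42.0, other scaling and filters, sex (Xist against Ddx3y) or mapped share as a term, and single mice left out. The mapped share came from the study's quality listing. The scripts were tested on simulated data. The members and gene lists were chosen with earlier results of these data known. Named genes were all members and the FLCN, Rag and MiT-TFE list, the 6 most changed other lysosomal membrane genes called in each comparison with a mean of at least 1 CPM, the gene most like each member and the most abundant gene of each cell type list.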

Additional observations from a re-analysis of the deposited data

Results flagged for a closer look

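Some values stood apart from the other mice of their group, by the gap to the nearest mouse as a share of the group's range. These were Lamp2 in Cre Chow 4, the lowest of its 6 (0.682), Scarb2 in FLCN KO Chow 3, the highest of its 5 (0.781), Laptm5 in FLCN KO Chow 4, the lowest of its 5 (0.723), Pqlc2 in Cre MCD 3, the lowest of its 5 (0.727), and Tfe3 in Cre Chow 5, the highest of its 6 (0.634). They are 5 of 144 groups of values examined, and chance alone marks about 5% of groups.

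The genotype difference changed with diet, by the interaction in the edgeR fit, for Cd63 (-2.17 on the log2 scale). Among the other lysosomal membrane genes named it did so for Gpr137b (-1.59), Cd68 (-1.24), Slc15a3 (-1.12), Laptm5 (-1.06), Slc11a1 (-0.83), Pld3 (-0.71) and Tmem106b (0.67), and on the pathway list for Gpnmb (-2.95). Without the 5 low-mapped chow libraries 8 of these 9 lost the call and kept their direction: Cd63 (-1.68, adjusted p = 0.0654), Gpr137b (-1.21, 0.161), Cd68 (-0.99, 0.0667), Slc15a3 (-1.05, 0.095), Laptm5 (-0.86, 0.0673), Slc11a1 (-0.63, 0.229), Tmem106b (0.62, 0.0914) and Gpnmb (-3.56, 0.0763). The replicate block also ended the interaction calls of Gpr137b (adjusted p = 0.0805), Tmem106b (0.0527), Slc15a3 (0.0502), Slc11a1 (0.111) and Gpnmb (0.0845). Gpr137b lost its call in 4 of 31 alternative settings, among them limma-voom (0.0534) and the fit without FLCN KO Chow 4 (0.0518). Over the 32 alternative settings run for Slc11a1 its call was lost in 15. The chow mice left without those 5 libraries all had Xist above Ddx3y, while the MCD groups held both sexes. The causes were not tested.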

How the results depend on the processing

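The 8 members called between genotypes on MCD kept their direction and call under all alternatives run. Without the 5 low-mapped chow libraries 3 members and 3 other lysosomal membrane genes were called between genotypes on chow (5 and 8 with all libraries). Over all genes the chow calls were then 374 higher and 121 lower of 14271 tested (776 and 436 of 14062 with all libraries). Calls of the interaction among the others were 2 (9 with all libraries). Over all genes the interaction calls were 313 higher and 470 lower (463 and 779 with all libraries). Fewer mice enter those fits, and the chow mice left all had Xist above Ddx3y while the MCD groups held both sexes. With library totals alone, a setting chosen after seeing the data, calls among the others on chow were 14 and calls among the members with diet in Cre mice were 9 (4 with TMM). On that scale 3 diet differences changed sign and were called: Lamp1 (0.24) and Mcoln1 (0.20) in Cre mice and Mcoln1 (0.21) in FLCN KO mice. Members called in the interaction were 2 with DESeq2 and 2 with mapped share as a term. Over all genes the interaction calls were 637 higher and 1064 lower with DESeq2, and 570 and 880 with mapped share (463 and 779 in the main fit). When single mice were left out, members called were from 1 to 2. They were 2 without Cre MCD 3 (Lamp2 added), Cre MCD 5 (Slc17a5), FLCN KO Chow 3 (Slc17a5) or FLCN KO MCD 2 (Lamp2). Leaving out single mice also added calls with diet for Scarb2 in Cre mice (without Cre Chow 2, Cre Chow 4 or Cre MCD 3) and Clcn7 in FLCN KO mice (without FLCN KO Chow 1). The replicate block gave 5 calls among the others in the interaction, and over all genes 199 higher and 353 lower in the interaction (463 and 779 without it) and 247 lower on chow (436 without it); with no filter on low counts these were 214, 638 and 185. It moved no other total of calls among the members or the others by over 1.5 times, though Mcoln1 with diet in Cre mice (adjusted p = 0.0559) and Npc1 in FLCN KO mice (adjusted p = 0.0844) were not called under it. The numbers were not treated as pairs in the main fit. Of 31 same-numbered pairs, 7 had deviations correlated above 0.1 (mean 0.00607, from -0.551 to 0.47). Between the chow groups the values were 0.431, 0.35 and 0.47 where both mice had the same sex and mapped-share class, and -0.551 and -0.393 otherwise. These values cannot decide whether same-numbered mice shared a litter, cage or handling. The lowest count of a member in any library was 34, and groups held 5 or 6 mice; what depth and group size each limit was not tested.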
